A study of Mus musculus with 6 samples.

Results

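The cadherin and protocadherin genes of mouse were followed in NIH3T3 cells with and without added GGCT. Members were all genes whose symbol is Cdh followed by a number or starts with Pcdh. RefSeq lists 93 such symbols, of which 70 had at least 1 probe named for them alone, among 45038 genes or unnamed transcripts on the array. A member was tested if its brightest probe was well above background, by the scanner software's own flag, on every array of a group, empty or GGCT or both. This held for 38 of the 70. The other 32 could not be compared at this signal.

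NIH3T3 is an established line of mouse embryonic fibroblasts. Both groups had been infected with the retroviral vector pCX4bsr, carrying GGCT in the cells called GGCT-OE and serving as the control in the cells called empty, and both grew in medium with 2% serum. GGCT is an enzyme of glutathione breakdown. Each group had 3 one-colour arrays, from experiments numbered 1 to 3 in the titles. The labels describe a single establishment of the cells, so p-values here reflect how these experiments varied, which may be technical. Whether the populations are clones, and the species of the GGCT sequence, are not given in the sources used here.

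Cadherins are calcium-dependent adhesion proteins of the cell surface. The classical ones bind their own kind on the next cell and hold p120-catenin and beta-catenin on their tails, which ties them through alpha-catenin to actin. Protocadherins have related outer domains and other tails. The alpha, beta and gamma gene clusters lie in tandem on the same chromosome, and neurons switch on a few variable exons from each cluster, which gives each cell its own surface code. Fibroblasts are best known for N-cadherin (Cdh2) and cadherin 11 (Cdh11), while E-cadherin (Cdh1) marks epithelia and VE-cadherin (Cdh5) marks endothelium.

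More members were higher than lower with GGCT. Protocadherins made up most of the tested members (30 of 38), of the higher ones (15 of 16) and of the lower ones (4 of 5). Of the 38 tested members 16 were higher and 5 lower at an adjusted p under 0.05 (limma, Benjamini-Hochberg over all 23930 genes and transcripts tested), and 17 were not called. Over everything tested, 34.8% was called, with 17.5% higher and 17.2% lower, against 55.3% of the members. The median member differed by 0.28 on the log2 scale (GGCT minus empty), and the median of all tested by 0.02. The member median depended on the filter and the background. It was 0.10 when the flag was asked for on all 6 arrays and 0.10 after another background correction (normexp). With no filter on dim probes it was -0.03. The medians of all tested were then 0.01, -0.02 and -0.02. The 3 GGCT arrays lay wholly above or wholly below the 3 empty arrays in 28 of 38 members (73.7%), against 49.4% of all genes and transcripts tested. At least 2-fold calls numbered 6 among the members, and 8.95% of everything tested passed the same rule. Cdh5, counted among the higher members and the 2-fold calls, passed the filter through the GGCT arrays alone. A fit that blocked on the experiment number called 19 members higher and 8 lower, and it called 53.4% of everything tested (27.3% higher and 26.0% lower).

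By class the calls were uneven in number, and differences between classes were not tested. Of the 23 cadherins 8 were tested, with Cdh5 higher, Cdh26 lower and 6 not called (median -0.08). Of the 12 non-clustered protocadherins 6 were tested, with 4 higher, 1 lower and 1 not called (median 0.76). The clustered protocadherins gave 24 tested members of 35 with a probe, with 11 higher, 3 lower and 10 not called (median 0.28). Within the clusters the beta genes supplied 18 of the tested members and 10 of the 11 higher ones.

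**Figure D1:**
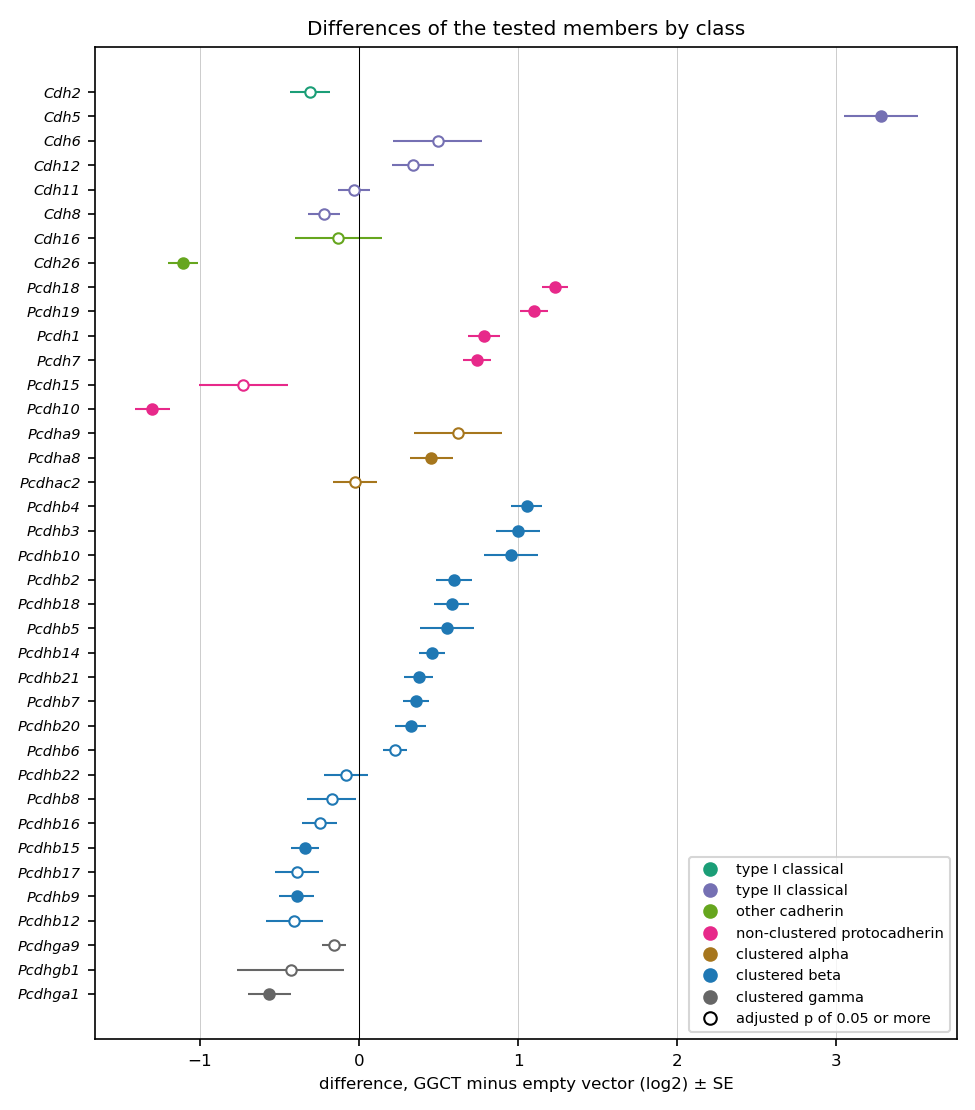
Difference between the group means (GGCT minus empty, log2, with SE bars) of each of the 38 tested members, with colour for the class, filled points for called members and open points for the others. Non-clustered (6 tested) and beta protocadherins (18 tested) hold 14 of the 16 higher members. Cdh5 is drawn at its measured 3.28, which rests on empty arrays that were not above background.

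The share of probes with the background flag ranged from 54.6% to 61.6% over the arrays, and no spot was saturated. Mouse Ggct stood at -0.65 ± 0.07 in the empty group and -0.03 ± 0.20 with GGCT (mean ± SD, n = 3). The difference was 0.62 ± 0.12 (SE; limma adjusted p = 0.0111). Leaving out the replicate 2 pair gave an adjusted p of 0.0756 and leaving out the replicate 3 pair 0.108. Whether the Ggct probe reads the added sequence was not determined, so this difference may not measure the overexpression. Of 10 fibroblast markers 9 were well above background on all 6 arrays, the exception being Fap. Their summed linear level (in units of each array's 75th percentile) was 2014 to 2445 on empty and 1548 to 1935 on GGCT arrays, with Col1a1, Col1a2, Col3a1 and Pdgfrb lower and Pdgfra higher. Col1a2 (limma adjusted p = 0.0607 and 0.109) and Col3a1 (0.0904 and 0.114) were not called with the replicate 2 or the replicate 3 pair left out, nor was Pdgfra without the replicate 3 pair (0.109). Col3a1 was also lost without empty replicate 2 (0.0608) or empty replicate 3 (0.0680) alone. The 9 epithelial markers summed to 0.404 to 0.431 and 0.476 to 0.600, with Epcam, Cldn3 and Ocln above background on no array. Krt8 was above it on all 6 arrays and 2.26-fold higher (limma adjusted p = 0.0125), with 0.0539 and 0.0770 when the replicate 2 or the replicate 3 pair was left out. The 5 skeletal muscle markers summed to 1.53 to 2.04 and 0.159 to 0.290, a sum carried by Acta1. Acta1 was the only 1 of them tested, and it differed by -3.67 (limma adjusted p = 0.000137). Myod1 (-1.23), Myog (-0.09), Myh3 (0.49) and Des (0.007) were too dim to test. The 6 neural markers summed to 18.4 to 25.3 and 16.7 to 23.5, a sum carried by Snap25, which was not called. Map2 was above background on all 3 empty arrays and no GGCT array. Its empty mean was 27.6-fold above the lowest signal that counts as above background on the GGCT arrays. The measured Map2 difference was -7.08 (limma adjusted p = 9.3e-06), and -3.04 after normexp background correction. Map2 passed the filter through the empty arrays alone, and its GGCT values lie at the background. So 27.6-fold is not a strict lower limit, and the size of the Map2 difference is uncertain. Gfap was 1.45-fold higher (limma adjusted p = 0.00879), but not with the replicate 2 pair (0.0881) or the replicate 3 pair (0.108) left out or after normexp background correction. The 5 immune markers, with Ptprc above background on no array, summed to 23.8 to 32.6 and 23.5 to 29.2. Of these 4 were tested, and Cd68 was called lower but missed the threshold in 15 of 23 alternatives. The part of these shifts in the member results was not tested. In bulk RNA fewer cells of a kind and less RNA per cell cannot be told apart.

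Levels here are log2 processed intensity minus the array's 75th percentile, listed for replicates 1, 2 and 3. N-cadherin and cadherin 11, the classical cadherins best known from fibroblasts, were well above background on all 6 arrays and neither was called. N-cadherin (Cdh2), the type I cadherin of mesenchymal and neural cells, gave 4.40, 4.04 and 4.12 on empty arrays and 4.01, 3.84 and 3.78 on GGCT arrays. Every GGCT array lay below every empty array. The difference was -0.31 ± 0.13 (SE; limma adjusted p = 0.111). Blocking on the replicate number gave an adjusted p of 0.0198.

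Cadherin 11 (Cdh11), a type II cadherin of mesenchyme and bone-forming cells, read 2.93, 2.82 and 2.88 without GGCT and 2.99, 2.81 and 2.74 with it. The groups overlapped, with a difference of -0.03 (limma adjusted p = 0.848). A dimmer Cdh11 probe differed by -0.16. Of the other type II members tested, Cdh8 differed by -0.22 (limma adjusted p = 0.145), Cdh12 by 0.34 (0.0920) and Cdh6 by 0.49 (0.228), none of them called. The Cdh6 adjusted p was 0.0400 with the block.

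E-cadherin was not above background on any array. Its single probe read -5.99, -5.32 and -4.97 on empty arrays and -7.26, -6.80 and -6.77 on GGCT arrays, all without the flag, so no difference was measured. P-cadherin (Cdh3) was above background on no array, and R-cadherin (Cdh4) and the muscle cadherin Cdh15 were above it on 2 arrays at most. The type II members Cdh7, Cdh9, Cdh10, Cdh18, Cdh19, Cdh20, Cdh22 and Cdh24 were also too dim to test.

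VE-cadherin (Cdh5), the adhesion protein of endothelial junctions, was the member seen in 1 group only. It read -7.27, -7.10 and -6.77 on empty arrays, none of them above background, and -3.44, -3.65 and -4.21 on GGCT arrays, all above it. Cdh5 passed the filter through the GGCT arrays alone, and its empty values lie at the background. Measured means were -7.05 ± 0.25 and -3.77 ± 0.40, and limma on these measured values gave an adjusted p of 0.000299. The GGCT mean was 2.18-fold above the lowest signal that counts as above background on each empty array. Probes without the flag can read above that signal, so 2.18-fold is not a strict lower limit. The size of the difference is therefore uncertain. Slide 1 alone gave a measured difference of 3.83 and slide 2 alone 3.01, and the difference was 0.44 after another background correction (normexp with offset 50, limma adjusted p = 0.0282). Of 6 endothelial markers, Kdr, Tek and Cldn5 were above background on no array. Tek read lower on GGCT arrays, by -0.65 and without overlap. Over everything tested groups did not overlap for 49.4%. Tie1 read -7.15, -6.95 and -6.64 on empty arrays and -4.92, -4.09 and -4.73 on GGCT arrays, without overlap, and was above background on 1 GGCT array only. Esam differed by 0.52 and was above background on 1 empty and 2 GGCT arrays, and neither was tested. Pecam1 was 1.35-fold higher (limma adjusted p = 0.0480, past the threshold in 11 of 23 alternatives), and the summed level of the 6 markers was 0.170 to 0.218 on empty and 0.259 to 0.311 on GGCT arrays. The part of these markers in the Cdh5 result was not tested.

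Cdh26, a cadherin best known from epithelia, was lower. It read 1.49, 1.57 and 1.59 on empty arrays and 0.39, 0.36 and 0.60 on GGCT arrays. The groups were separated by about the size of the difference itself, -1.10 ± 0.10, which is 2.15-fold lower (limma adjusted p = 0.000618). It was nearly the same on slide 1 (-1.11) and slide 2 (-1.10). A dimmer Cdh26 probe, for another transcript, went the same way from -2.82 to -5.04 and was above background on all 3 empty arrays and 1 GGCT array. Cdh16, the kidney cadherin, differed by -0.13 (limma adjusted p = 0.759), and T-cadherin (Cdh13), LI-cadherin (Cdh17) and the hair-bundle cadherin Cdh23 were too dim to test.

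**Figure D2:**
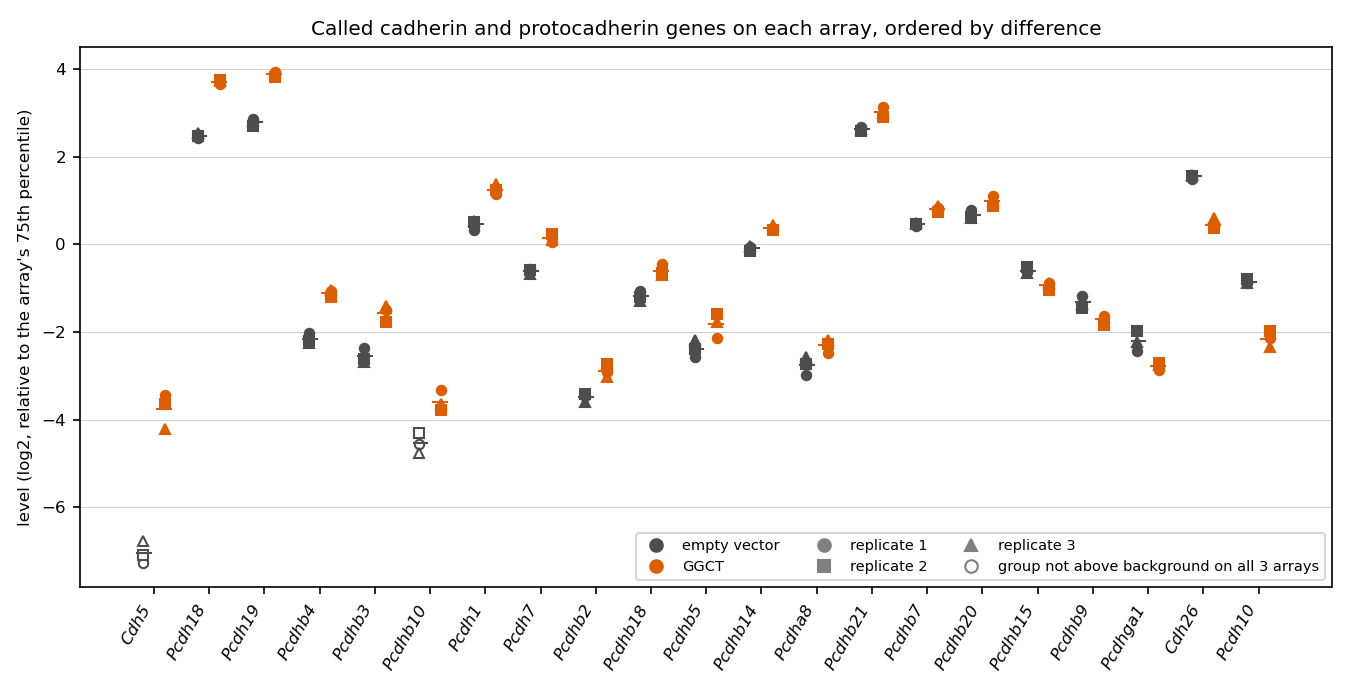
Level on each array (log2 processed intensity minus the array's 75th percentile) of the 21 called members, ordered by difference, with empty arrays in grey, GGCT arrays in orange, lines for group means, marker shapes for replicates 1, 2 and 3, and open symbols for a group not above background on all 3 arrays. The groups overlap for none of the 21, and the open symbols belong to the empty arrays of Cdh5 and Pcdhb10.

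Most tested non-clustered protocadherins were called. Pcdh18, a delta-2 protocadherin known to bind the adaptor Dab1, read 2.42, 2.47 and 2.54 on empty arrays and 3.65, 3.76 and 3.73 on GGCT arrays. All GGCT arrays were above all empty ones. It was 2.35-fold higher, a difference of 1.23 ± 0.08 (limma adjusted p = 0.000226), with 1.23 on slide 1 and 1.24 on slide 2.

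Pcdh19, a delta-2 protocadherin that binds N-cadherin and whose human gene is known for an X-linked epilepsy, read 2.87, 2.70 and 2.81 and, with GGCT, 3.94, 3.83 and 3.90. The groups were clearly apart. The difference was 1.10 ± 0.09, 2.14-fold higher (limma adjusted p = 0.000430), and a dimmer probe for the same transcript gave 1.05. On slides 1 and 2 the difference was 1.07 and 1.11.

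Pcdh10, another delta-2 member, which links to the actin-regulating WAVE complex, went the other way. Empty arrays read -0.88, -0.79 and -0.89 and GGCT arrays -2.13, -1.98 and -2.33. Every GGCT array was lower, by -1.30 ± 0.11 or 2.46-fold (limma adjusted p = 0.000586). Its 3 probes, each for another transcript, differed by -1.30, -1.48 and -1.56, and after normexp the brightest gave -0.89.

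Of the delta-1 members, which carry a site for protein phosphatase 1, Pcdh1 and Pcdh7 were higher. Pcdh1, of airway epithelium and other barriers, read 0.34, 0.52 and 0.54 on empty arrays and 1.15, 1.23 and 1.38 on GGCT arrays, without overlap. It was 1.72-fold higher (0.79 ± 0.10, limma adjusted p = 0.00259), but was not called once the replicate 2 pair (adjusted p = 0.0514) or the replicate 3 pair (0.0623) was left out.

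Pcdh7 read -0.55, -0.59 and -0.68 and, with GGCT, 0.06, 0.25 and 0.09, again without overlap. It was 1.67-fold higher (0.74 ± 0.09, limma adjusted p = 0.00194), and its other probes gave 1.12 and 0.62. Leaving out the replicate 3 pair gave an adjusted p of 0.0663. Pcdh15, the partner of Cdh23 in hair-cell tip links, differed by -0.72 with overlapping groups (limma adjusted p = 0.0970), and by 0.25 when its 6 probes, of which only 1 passed the background rule, were averaged. Pcdh8, Pcdh9, Pcdh11x, Pcdh12, Pcdh17 and Pcdh20 were too dim to test. Pcdh17 read -2.25 on the GGCT array of replicate 1 and -6.75 or lower on the other 5.

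**Figure D3:**
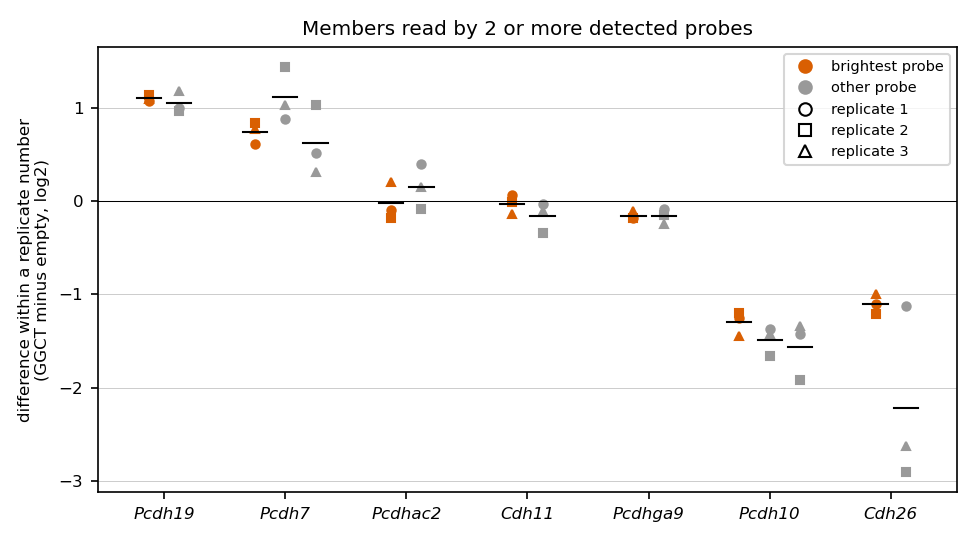
Difference within each replicate number (GGCT minus empty, log2) for every probe above background in a whole group, of the 7 members with at least 2 such probes, with the brightest probe in orange, others in grey, marker shapes for replicates 1, 2 and 3, and black lines for each probe's mean difference. Probes of Pcdh19, Pcdh7, Pcdh10 and Cdh26 lie on the side of their brightest probe, and the means of Pcdhac2, Cdh11 and Pcdhga9 probes lie between -0.16 and 0.15.

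Promoter sequence was available for 22 members with 25 start sites in the RefSeq table of assembly GRCm38.p6, as 250 bases before to 50 after each start. The 4 shown belong to members called with at least a 2-fold difference, outside the clusters. Cdh5 also passed this rule by its measured difference, but no promoter sequence was available for it. All are given 5′ to 3′ on the gene's own strand. Pcdh18 is at chr3:49757267-49757566 (minus strand), Pcdh19 at chrX:133688944-133689243 (minus), Pcdh10 at chr3:45378148-45378447 (plus) and Cdh26 at chr2:178430265-178430564 (plus). Capitals mark GATTGG, the CCAAT box CCAATC read on the opposite strand.
Pcdh18: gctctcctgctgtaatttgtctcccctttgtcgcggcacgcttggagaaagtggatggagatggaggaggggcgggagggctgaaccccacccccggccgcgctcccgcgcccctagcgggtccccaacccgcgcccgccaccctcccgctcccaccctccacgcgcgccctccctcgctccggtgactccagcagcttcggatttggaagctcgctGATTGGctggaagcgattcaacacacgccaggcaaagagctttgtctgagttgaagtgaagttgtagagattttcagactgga
Pcdh19: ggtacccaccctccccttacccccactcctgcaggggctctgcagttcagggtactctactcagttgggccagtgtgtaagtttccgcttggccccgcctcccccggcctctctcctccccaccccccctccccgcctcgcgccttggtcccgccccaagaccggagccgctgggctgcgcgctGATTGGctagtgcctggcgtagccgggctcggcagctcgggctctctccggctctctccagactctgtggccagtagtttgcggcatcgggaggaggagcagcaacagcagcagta
Pcdh10: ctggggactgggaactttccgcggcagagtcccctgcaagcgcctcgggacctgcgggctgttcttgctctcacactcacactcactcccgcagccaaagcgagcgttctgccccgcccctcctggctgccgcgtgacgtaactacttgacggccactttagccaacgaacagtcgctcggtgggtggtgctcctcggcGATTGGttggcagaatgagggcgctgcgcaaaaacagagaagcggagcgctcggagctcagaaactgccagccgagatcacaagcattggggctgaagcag
Cdh26: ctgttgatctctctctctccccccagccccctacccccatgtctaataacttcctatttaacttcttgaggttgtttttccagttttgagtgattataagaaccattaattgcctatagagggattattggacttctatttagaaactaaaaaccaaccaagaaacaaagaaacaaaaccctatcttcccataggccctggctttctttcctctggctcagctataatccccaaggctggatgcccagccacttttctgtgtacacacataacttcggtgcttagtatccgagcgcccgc

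The 3 protocadherin promoters were rich in CpG, with 23 in Pcdh18, 18 in Pcdh19 and 24 in Pcdh10, against a median of 7 over 32851 promoters. The Cdh26 promoter had 4. Their GC content was 63%, 67.7%, 62.3% and 44%, and the median of all promoters was 52.7%. The CCAATC match began 33 bases before the start in Pcdh18, 66 in Pcdh19 and 51 in Pcdh10, and Cdh26 had none. The motif, searched on both strands after these sequences were seen, occurs in 16.1% of all promoters and in 10 of the 25 member promoters (40%). Pcdh10, which was lower, and Pcdh18 and Pcdh19, which were higher, all held it.

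Matches to a further pair of motifs were counted on both strands. CAGGTG, the E-box bound by Snail and ZEB proteins, was in 5 of 25 member promoters (20%) and 20.2% of all promoters. Those matches were the 3 Cdh7 starts, Pcdh7 and Pcdh15, and none was in the 4 sequences shown. Cdh1, Cdh2, Cdh5 and Cdh11 were among the members without promoter sequence, so they were not searched. GACCACCCA, the GLI consensus, was in 0 of 25 and in 0.253% of all. No match says only that these letters are not in this window. Pcdh10 and Pcdh18 lie on chromosome 3 with 27 annotated genes between them, of which 1 codes for protein (Pabpc4l), and they went in opposite directions.

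The beta cluster consists of single-exon genes, each with its own start, and their protein-coding parts are near copies of one another. All 22 had a probe, 18 were tested, and 10 were higher, 2 lower and 6 not called, with a median of 0.34 and a range from -0.40 to 1.05. Groups did not overlap for 15 of the 18. Over everything tested 34.8% was called, and groups did not overlap for 49.4%. Each beta gene had 1 probe named for it alone, and how far a probe reads a near-identical neighbour was not tested, so the value of any single beta gene is uncertain to that extent.

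Pcdhb4 read -2.02, -2.20 and -2.24 on empty arrays and -1.06, -1.20 and -1.05 with GGCT. Its groups were well separated. It was 2.08-fold higher (1.05 ± 0.10, limma adjusted p = 0.000786), with 0.96 on slide 1 and 1.10 on slide 2, and 0.67 after normexp.

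Pcdhb3 gave -2.37, -2.62 and -2.68 and, with GGCT, -1.50, -1.78 and -1.40. No array of 1 group reached the other. The difference was 1.00 ± 0.14 (limma adjusted p = 0.00323), and 0.55 after normexp. With the replicate 3 pair left out the adjusted p was 0.0734.

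Pcdhb10 gave -4.56, -4.30 and -4.76 on empty arrays, 2 of them above background, and -3.33, -3.79 and -3.65 on GGCT arrays, all above it. The groups did not overlap but lay near the background. It was 1.94-fold higher (0.96 ± 0.17, limma adjusted p = 0.00735), but 0.18 after normexp, which was not called (adjusted p = 0.221). Its adjusted p was 0.0968 once the replicate 3 pair was left out.

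Pcdhb21, among the 6 brightest members, read 2.68, 2.59 and 2.64 on empty arrays and 3.13, 2.90 and 3.00 on GGCT arrays. Its lowest GGCT array stood above its highest empty array. The difference was 0.38 ± 0.09, 1.30-fold higher (limma adjusted p = 0.0216). The remaining higher beta genes were Pcdhb2 (0.60), Pcdhb18 (0.58), Pcdhb5 (0.55), Pcdhb14 (0.46), Pcdhb7 (0.36) and Pcdhb20 (0.33), with limma adjusted p from 0.00775 for Pcdhb14 to 0.0484 for Pcdhb5.

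The lower beta genes were Pcdhb9 and Pcdhb15. Pcdhb9 read -1.17, -1.44 and -1.35 on empty arrays and -1.64, -1.85 and -1.65 on GGCT arrays, without overlap and with a difference of -0.39 ± 0.11 (limma adjusted p = 0.0371). Pcdhb15 read -0.63, -0.52 and -0.64 and, with GGCT, -0.89, -1.04 and -0.87, also without overlap, at -0.34 ± 0.09 (limma adjusted p = 0.0308). The beta genes not called were Pcdhb6 (0.23), Pcdhb8 (-0.17), Pcdhb12 (-0.40), Pcdhb16 (-0.25), Pcdhb17 (-0.39) and Pcdhb22 (-0.08). With the block Pcdhb6 (adjusted p = 0.0281) passed as higher and Pcdhb12 (0.0130) and Pcdhb17 (0.00736) as lower. Pcdhb1, Pcdhb11, Pcdhb13 and Pcdhb19 were too dim to test.

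Many of the smaller beta calls depended on single arrays or experiments. Pcdhb9 and Pcdhb15 missed the threshold without any 1 of the 6 arrays, and the highest adjusted p over all alternatives was 0.215 and 0.212. Pcdhb20 missed it without any 1 array other than that of empty replicate 1 (highest 0.334), and Pcdhb5 without any 1 other than GGCT replicate 1 (highest 0.261). Pcdhb7 missed it without any empty array or without GGCT replicate 3 (highest 0.209), and Pcdhb21 without GGCT replicates 1 or 3 or empty replicates 2 or 3 (highest 0.217). Pcdhb2, Pcdhb14 and Pcdhb18 missed it when the replicate 2 pair (0.0681, 0.0846 and 0.0960) or the replicate 3 pair (0.0893, 0.132 and 0.108) was left out. Pcdhb4 kept its call in each of these runs.

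Along the cluster the differences came in short runs with changes of sign. Pcdhb2 to Pcdhb7 were all positive, 5 of these 6 called. From Pcdhb8 to Pcdhb17 positive differences were seen for Pcdhb10 and Pcdhb14, both called higher, and the other 6 tested were negative, with Pcdhb9 and Pcdhb15 called lower. Pcdhb18, Pcdhb20 and Pcdhb21 were higher, and Pcdhb22 stood at -0.08. These runs are a description, and no test of position was made.

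**Figure D4:**
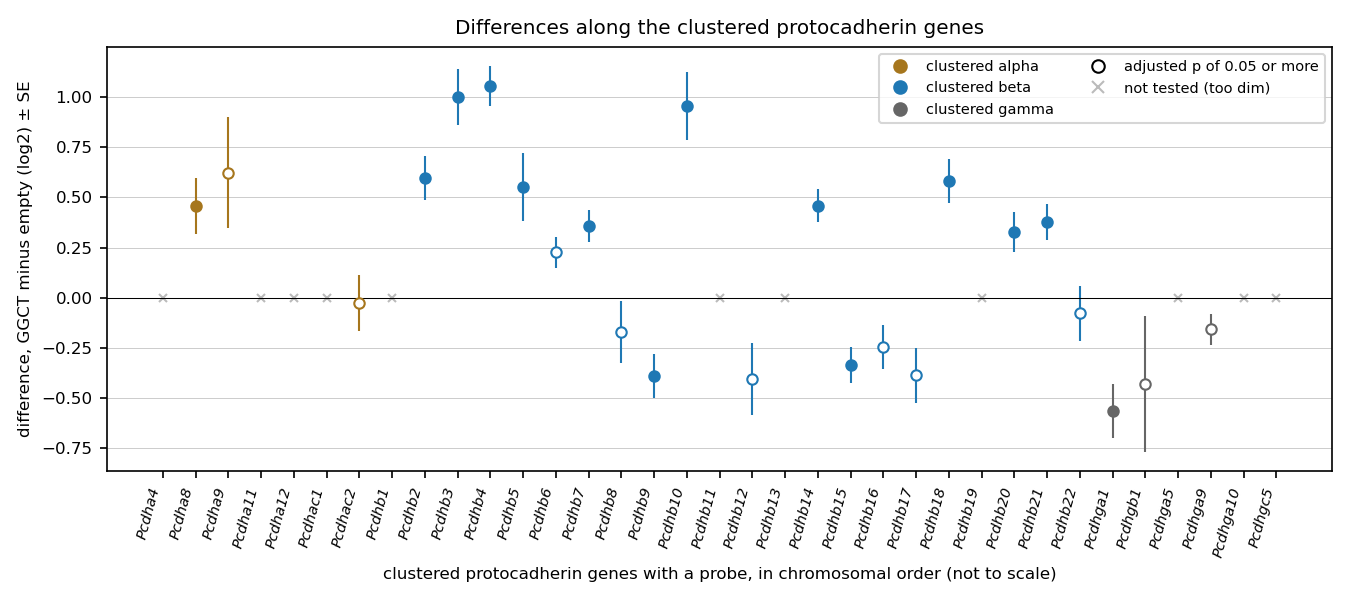
Difference between group means (GGCT minus empty, log2, with SE bars) of the clustered protocadherins with a probe, in chromosomal order and not to scale, with colour for the cluster, filled points for called members, and crosses at 0 for members too dim to test, which have no value. Pcdhb2 to Pcdhb7 all lie above 0, and signs are mixed from Pcdhb8 to Pcdhb17.

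The array covered the alpha and gamma clusters thinly. In these clusters each variable first exon is spliced to constant exons at the 3′ end that all transcripts of the cluster share, so a probe there reads the whole cluster whatever gene it is named for. The probes' sequences were not used here, so it was not determined which of them lie in shared exons. Of 14 alpha symbols 7, and of 22 gamma symbols 16, had no probe named for them alone.

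Among the alpha genes 3 were tested. Pcdha8 was higher by 0.46 (limma adjusted p = 0.0459), rising from -2.98, -2.73 and -2.58 to -2.47, -2.27 and -2.17. Its groups did not overlap, and it missed the threshold without any 1 array other than GGCT replicate 1 (highest adjusted p over all alternatives 0.231). Pcdha9 differed by 0.62 but was above background on only 1 empty array (limma adjusted p = 0.135, and 0.00628 with the block). Pcdhac2, a C-type gene at the end of the alpha cluster, differed by -0.02 (limma adjusted p = 0.915), and its dimmer probe by 0.15. Pcdha4, Pcdha11, Pcdha12 and Pcdhac1 were too dim.

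Among the gamma genes Pcdhga9 and Pcdhga1 carry the values. Pcdhga9 read 5.77, 5.69 and 5.69 on empty arrays and 5.59, 5.51 and 5.58 on GGCT arrays. All 3 GGCT arrays were lower, but by only -0.16, which was not called (limma adjusted p = 0.169). Its dimmer probe also gave -0.16, from 0.30 to 0.14. The 2 probes named Pcdhga9 stand for the same transcript.

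Pcdhga1 read -2.44, -1.98 and -2.22 on empty arrays and -2.87, -2.70 and -2.76 on GGCT arrays. It was lower without overlap, by -0.56 ± 0.13 (limma adjusted p = 0.0215), and missed the threshold without GGCT replicates 1 or 3 or empty replicates 2 or 3 (highest adjusted p over all alternatives 0.184). Pcdhgb1 differed by -0.43 (limma adjusted p = 0.381), near the background, and Pcdhga5, Pcdhga10 and Pcdhgc5 were too dim.

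A probe with conflicting names bears on the beta cluster. The grid of slide 1 names it for Pcdhb19 and that of slide 2 for Exoc3, a subunit of the exocyst. It fell from 1.61 to 0.62, a difference of -0.99 (limma adjusted p = 0.000726 as a probe of its own). With the names of slide 1 alone it stood for Pcdhb19, and 6 members were lower. Under both names it was left unnamed. The other Pcdhb19 probe was above background on 2 arrays of each group. A probe named for both Cdh23 and Slc30a8 was above background on no array.

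Partners of these proteins were read from gene lists. To set beside each list below, 34.8% of everything tested was called, with 17.5% higher and 17.2% lower. The median of everything tested was 0.02, and none of the lists was tested as a set. Among catenins and their linkers 10 of 12 were tested, 1 was higher and 3 lower (median -0.24). The lower ones were p120-catenin (Ctnnd1, -0.53), beta-catenin (Ctnnb1, -0.43) and alpha-catulin (Ctnnal1, -0.39), and afadin (Afdn, 0.63), which joins nectins to actin, was higher. Adjusted p values were 0.0175, 0.00804, 0.0180 and 0.00397 (limma). None of the 4 was called with the replicate 2 pair left out (0.0699 to 0.0934) or the replicate 3 pair left out (0.0624 to 0.210). Ctnnal1 was also lost without either array of replicate 3 alone, and Ctnnd1 without those or GGCT replicate 2.

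Of 25 other cadherin superfamily genes 11 were tested, 0 were higher and 2 lower (median 0.03). Fat4, the giant receptor of Dchs1 in planar polarity, read -1.61, -2.06 and -1.73 on empty arrays, all above background, and -6.81, -7.29 and -6.93 on GGCT arrays, none above it. The empty mean was 8.68-fold above the lowest signal that counts as above background on the GGCT arrays. For Fat4 limma on the measured values gave an adjusted p of 2.71e-05, and the difference was -1.65 after normexp. Fat4 passed the filter through the empty arrays alone, and its GGCT values lie at the background. So 8.68-fold is not a strict lower limit, and the size of the Fat4 difference is uncertain. Fat2 was lower by -0.58 (limma adjusted p = 0.00469), with 0.0725 and 0.0996 when the replicate 2 or the replicate 3 pair was left out.

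Of 13 transcription regulators of cadherins 10 were tested, 2 were higher and 3 lower (median -0.03). Snai2, a repressor of E-cadherin and other epithelial genes, read 3.64, 3.56 and 3.45 on empty arrays and 0.95, 0.89 and 1.07 on GGCT arrays. It was 5.99-fold lower (limma adjusted p = 3.41e-05) with no overlap. Snai1 (-0.58) and Twist2 (-0.50) were lower, and Zeb1 (0.41) and Tcf3 (0.37), which also bind E-boxes, were higher. None of these 4 was called with the replicate 3 pair left out (limma adjusted p 0.0944 to 0.230), nor were Snai1, Zeb1 and Tcf3 with the replicate 2 pair left out (0.0811 to 0.138). Zeb1 was also lost after a median shift or without any 1 array other than GGCT replicate 1, and Tcf3 without empty replicates 2 or 3 or GGCT replicate 3.

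Of 9 proteases and secretase parts that cut cadherins 8 were tested, 0 were higher and 2 lower (median 0.01). The membrane metalloprotease Mmp14 was 2.74-fold lower, from 2.41 ± 0.02 to 0.96 ± 0.12 (limma adjusted p = 0.000208), and Adam9 was lower by -0.81 (limma adjusted p = 0.00822). Adam9 gave 0.0766 and 0.113 when the replicate 2 or the replicate 3 pair was left out.

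Of 17 regulators of the protocadherin clusters 16 were tested, 8 were higher, 1 lower and 7 not called (median 0.26). Over everything tested 17.5% was higher and the median was 0.02, and the list was not tested as a set. Dnmt3b, the methyltransferase that methylates variable-exon promoters, was 1.91-fold higher (0.94 ± 0.12, limma adjusted p = 0.00211). The other higher ones were Dnmt3a (0.47), Dnmt1 (0.40), Wiz (0.40), Setdb1 (0.33), the cohesin subunits Smc3 (0.33) and Stag1 (0.29), and Ctcf (0.28), which binds the cluster promoters and enhancers. The cohesin subunit Stag2 was lower, reading 3.00, 2.93 and 3.00 on empty arrays and 2.10, 2.12 and 2.11 on GGCT arrays, or 1.82-fold (limma adjusted p = 0.000561). None of the 8 higher ones was called with the replicate 3 pair left out (limma adjusted p 0.0576 to 0.375), and only Dnmt3b was with the replicate 2 pair left out (0.0451, the others 0.0841 to 0.228). The mean of its 3 probes also ended the Dnmt3b call (0.109). Dnmt1 and Stag1 were lost without any 1 of the 6 arrays, Ctcf and Setdb1 without any other than empty replicate 1, and Smc3 without any other than GGCT replicate 1. Dnmt3a was lost without GGCT replicates 1 or 3 or empty replicates 2 or 3. Ctcf, Smc3 and Stag1 were also lost after a median shift.

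**Figure D5:**
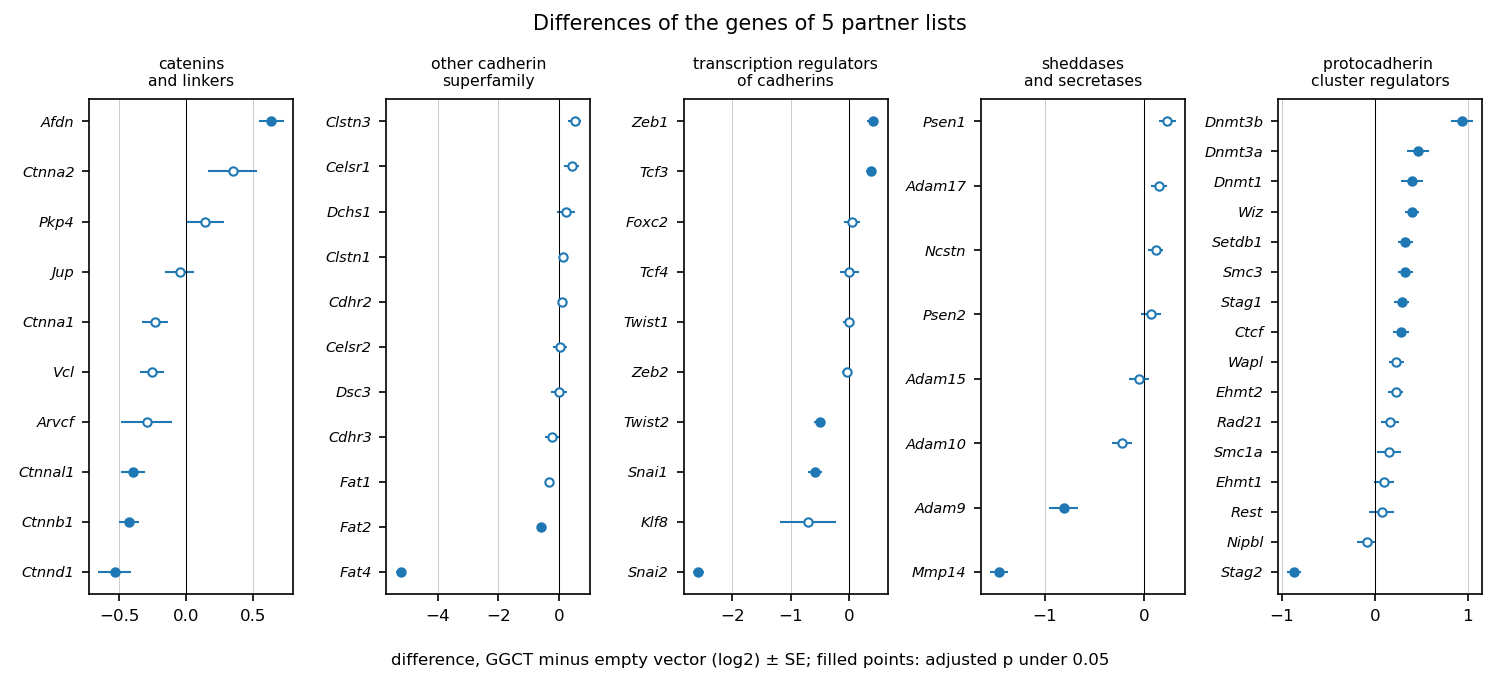
Difference between group means (GGCT minus empty, log2, with SE bars; each panel has its own scale) of each tested gene of the 5 partner lists, with filled points for called genes. Snai2, Mmp14 and Stag2 are lower, and 8 of 16 cluster regulators are higher. Fat4 is drawn at its measured difference, which rests on GGCT arrays that were not above background.

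Across the alternatives run, 6 of the 21 called members kept an adjusted p under 0.05 in each run that tested them. Pcdh18, Pcdh19, Pcdhb4, Pcdh10 and Cdh26 did so in all 23, and Cdh5 in 22. The filter over all 6 arrays, which asks for signal in both groups, left Cdh5 untested. Cdh5 passed the main filter through the GGCT arrays alone, with empty values at the background. Its 22 runs are therefore no separate support for its call. No called member changed sign. Dropping the filter on dim probes, which raised the number of tests, ended the calls of Pcdha8, Pcdhb5, Pcdhb7, Pcdhb9, Pcdhb14, Pcdhb15, Pcdhb20, Pcdhb21 and Pcdhga1. Normexp ended those of Pcdha8, Pcdhb2, Pcdhb5 and Pcdhb10, a median shift those of Pcdha8 and Pcdhb5, quantile normalization that of Pcdhb5 and a trended variance that of Pcdha8. Members differed in the same direction on both slides in 35 of 38 and in all 3 same-numbered pairs in 34 of 38. The same shares over everything tested were not computed, so these counts do not set the members apart. The median member differed by 0.23 on slide 1 and 0.27 on slide 2. No called member was lost with the replicate block, and Cdh2, Cdh6, Pcdha9, Pcdhb6, Pcdhb12 and Pcdhb17 were called only with it.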

How the data were processed

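Total RNA of 6 cultures was amplified, labelled with Cy3 and hybridised to 1-colour Agilent arrays, per the labels. The deposited scanner files hold spot intensities from Agilent Feature Extraction 12.1.0.3, background-subtracted and detrended within each array, per the file headers. From 62976 spots a file, 3671 control spots and outlier-flagged spots (578 over the 6 arrays) were left out, and replicate spots of a probe were averaged, which left 56570 probes. The deposited series table holds log2 values that equal the log2 processed intensity less an offset per array (16401 probes above 200 units correlated at 1), with column medians from -3.87 to -3.69, and it served as an alternative.

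Each array's 75th percentile (380.0 to 470.5 intensity units) was subtracted on the log2 scale. Unversioned accessions were matched to RefSeq of GRCm38.p6, which named 34550 probes (61.1%). The grids of the 2 slides name some probes differently, so all their accessions were joined, and 334 probes with several symbols stayed unnamed. The grid files name another build (mm9), so coordinates are given only for printed RefSeq promoters. A gene is its brightest probe over the 6 arrays. Differences are GGCT minus empty, and the test was 2-sided with lmFit and eBayes of limma 3.58.1 under R 4.3.3, without covariates. The procedure was tested on simulated data.

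Full values are given for up to 8 called members per direction, every member above background in 1 group only, the 6 brightest members and some others chosen after their values were seen. A gene of the partner lists is not reported here and was left out of the list counts. Members, lists and this rule were chosen with earlier results of these data known. Slide 1 (scan 1) held replicate 1 of each group, and slide 2 (scan 2) held the others. Deviations from the group means of same-numbered arrays correlated across genes at 0.731, 0.453 and 0.358. The cross correlations on slide 2 were 0.300 and 0.343. Since replicate 1 was alone on slide 1, these values cannot tell pairing by number from a shared slide. The titles' numbers were taken as pairs for the replicate block and for leaving pairs out, and the main fit used no pairing. The 23 alternatives changed the normalization, background, filter, probe choice, variance, blocks, names and arrays used. The number of arrays limits the precision.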

Additional observations from a re-analysis of the deposited data

How the results depend on the processing

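The counts of 16 higher and 5 lower members moved by over 1.5 times in these runs. Without a filter on dim probes, 10 were higher and 3 lower, with 45038 genes and transcripts tested. With every probe on its own, 8 probes were lower (19 higher). The replicate block gave 8 lower (19 higher), and the slide as a block 9 lower (18 higher). Leaving out arrays or experiments gave between 4 and 18 higher and between 2 and 5 lower. The lowest higher counts were 7 without replicate 2 and 4 without replicate 3. Calls over everything tested moved as well, from 4196 higher and 4127 lower of 23930 in the main fit. They were 2239 and 2507 of 45038 without a filter, and 5511 and 5431 of 31110 with every probe. The replicate block gave 6544 and 6229 of 23930, and the slide block 6616 and 6227. These calls fell to 1327 and 1646 of 24251 without replicate 2, and to 699 and 1093 of 25057 without replicate 3. Lower members numbered 2 without empty replicate 2, without GGCT replicate 3 and without replicate 2, and 3 without empty replicate 1, GGCT replicate 1, GGCT replicate 2, empty replicate 3 or replicate 3. The lone array or smaller group is then assumed to vary like the other. Slide 2 alone and leaving out replicate 1 are the same run. No difference that was called changed sign. The replicate block lost no called member. The probe names of either slide's grid alone were alternatives chosen after seeing the data.

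Signal over background limits the dim members: 18 of 70 were above background on no array by any probe. After normexp the log2 differences of called members shrank by over 1.5 times for Cdh5 (to 0.44), Pcdhb10 (0.18), Pcdhb2 (0.17), Pcdha8 (0.19), Pcdhb5 (0.27), Pcdhb3 (0.55), Pcdhga1 (-0.33) and Pcdhb4 (0.67), and that of Fat4 went to -1.65.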
